A study of Homo sapiens with 6 samples.

Results

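The genes examined were those that move zinc across membranes, the metallothioneins that bind zinc and copper in the cytosol, the metal-sensing transcription factor MTF1, and 5 genes of copper uptake, delivery and export. They were chosen by symbol: every numbered SLC30A and SLC39A gene, every MT1 gene with a single letter, and MT2A, MTF1, SLC31A1, SLC31A2, ATOX1, ATP7A and ATP7B. That gave 40 of the 58395 genes in the count files, made up of 10 SLC30A genes, 14 SLC39A genes, 10 metallothioneins, MTF1 and 5 copper genes. MT1L, counted among the metallothioneins, is annotated as a pseudogene. All RNA was from THP-1 cells, an established line derived from an acute monocytic leukaemia and kept in RPMI with 10% serum. The untreated group held 3 libraries from cells without exposure, and the monensin group held 3 libraries from cells given 1 µM monensin for 16 h. The drug is an ionophore that swaps sodium for protons across membranes and is known to disturb the acid pH and traffic of the Golgi. No vehicle is named for the untreated cells, all cells came from the same line, and nothing says that the triplicates came from separate cultures, so the error behind each p-value is that among these libraries and may be only technical.

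Zinc in a cell is set by a pair of transporter families that work largely in opposite directions. Most SLC30A proteins (ZnT) move zinc out of the cytosol, into organelles or out of the cell, and SLC39A proteins (ZIP) move it into the cytosol. SLC30A9, counted here with the exporters, moves zinc out of mitochondria. Metallothioneins are small cysteine-rich proteins that buffer zinc and copper. Free zinc activates MTF1, which binds metal response elements in front of metallothionein genes and of SLC30A1, so these genes are textbook reporters of cytosolic zinc. Copper enters through SLC31A1 (CTR1), is handed by the chaperone ATOX1 to the pumps ATP7A and ATP7B, and is loaded by them into secreted enzymes in the Golgi.

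Levels below are counts per 1000000 gene counts (CPM), scaled to library sizes adjusted by the trimmed mean of M-values, and changes are log2 fold changes of monensin over untreated with their standard errors (SE). A gene was called changed at an edgeR quasi-likelihood p below 0.05 after Benjamini-Hochberg adjustment over the 16542 genes tested. In these bulk libraries, fewer cells that express a gene and less RNA per cell cannot be told apart. Gene counts per library ran from 22975888 to 25710513. All 14 genes listed as markers of the THP-1 line were detected. Their summed level was 4624 to 4866 CPM in untreated and 4963 to 5426 CPM in monensin libraries. The list includes granule genes, and AZU1 (mean 1393 CPM untreated, 1875 CPM monensin) and ELANE (844 and 846 CPM) made up a large part of that sum. Of these markers 7 rose and 4 fell, where 67.8% of all tested genes were called. LYZ went from 791 ± 14.3 to 292 ± 24.2 CPM (SD, n = 3; -1.44) and CD14 from 0.480 ± 0.0691 to 2.37 ± 0.289 CPM (SD, n = 3; 2.296). The T cell markers summed to at most 0.241 CPM, and the 4 erythroid and 4 epithelial markers were at 0 counts. B cell markers summed to 3.73 to 4.59 CPM in untreated and 5.49 to 5.83 CPM in monensin libraries, and fibroblast markers to 0.386 to 0.842 and 1.03 to 1.32 CPM. The part of these markers in the results was not tested.

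Of the 40 genes, 29 had enough counts to be tested, and 14 of these rose, 9 fell and 6 were not called. Across all tested genes 67.8% were called, 34.1% raised and 33.7% lowered, so a call on its own says little about a gene here. The median change of the 29 genes was 0.19, beside 0.02 over all tested genes. A rise of at least 2-fold was called for MT2A, MT1X, MT1G and SLC31A1, beside 9.41% of all tested genes, and falls of that size were called for 3.83% of all tested genes. After trends with GC content and gene length were removed, MT1X (0.98) and MT1G (0.74) were below 2-fold. MT2A (1.78) and SLC31A1 (1.24) stayed above it. The largest fall among the 29 was that of SLC39A8, at -0.87, short of a 2-fold change. The groups did not overlap for 24 of the 29 genes, beside 71.1% of all tested genes.

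**Figure D1:**
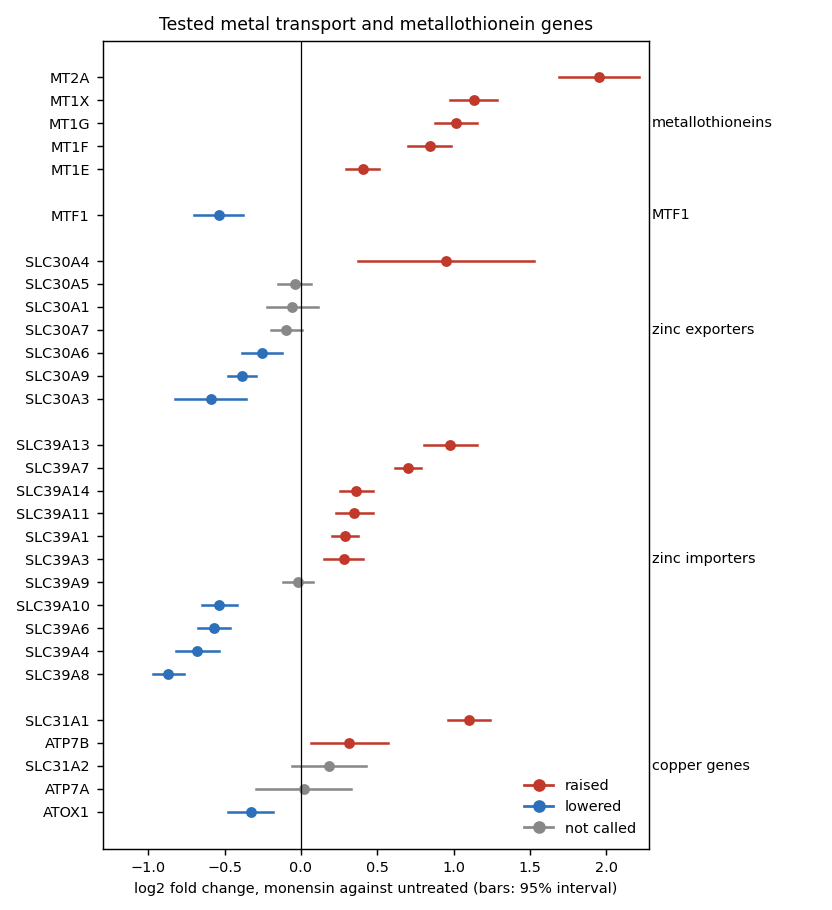
Log2 fold change of monensin over untreated (x axis) with its 95% interval for each of the 29 tested genes, grouped by role and coloured by call. The 5 metallothioneins lie between 0.40 and 1.95, while transporters of both directions lie on either side of 0.

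The clearest group was the metallothioneins, whose coding sequences are shown because they differ at so few bases that reads could be exchanged between rows. Each coding sequence is 186 bases long, all lie in the cluster at chr16:56608199-56684196 (GRCh38, GENCODE 29), and capitals mark bases that differ from MT2A.
MT2A: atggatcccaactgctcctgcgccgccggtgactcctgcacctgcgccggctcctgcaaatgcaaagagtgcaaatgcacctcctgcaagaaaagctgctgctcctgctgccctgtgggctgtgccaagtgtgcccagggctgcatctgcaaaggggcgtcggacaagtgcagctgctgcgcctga
MT1G: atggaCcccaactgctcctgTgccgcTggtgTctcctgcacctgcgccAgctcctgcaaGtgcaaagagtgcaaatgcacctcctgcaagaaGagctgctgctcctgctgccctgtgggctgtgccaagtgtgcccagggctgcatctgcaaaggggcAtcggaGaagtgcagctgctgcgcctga
MT1X: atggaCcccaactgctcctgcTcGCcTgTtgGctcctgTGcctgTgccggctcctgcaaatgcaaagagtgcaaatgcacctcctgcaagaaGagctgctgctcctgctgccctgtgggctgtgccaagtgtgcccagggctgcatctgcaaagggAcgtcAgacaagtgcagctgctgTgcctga
MT1E: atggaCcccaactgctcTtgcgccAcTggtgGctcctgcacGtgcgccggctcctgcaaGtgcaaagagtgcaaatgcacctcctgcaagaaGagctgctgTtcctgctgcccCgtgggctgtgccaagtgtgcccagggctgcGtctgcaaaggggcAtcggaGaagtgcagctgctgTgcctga
MT1F: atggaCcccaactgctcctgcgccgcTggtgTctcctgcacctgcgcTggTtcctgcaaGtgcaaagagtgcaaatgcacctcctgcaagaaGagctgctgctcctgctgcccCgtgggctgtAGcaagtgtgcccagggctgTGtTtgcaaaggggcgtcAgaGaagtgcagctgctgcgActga
Identity to MT2A was 95.2% for MT1G with 9 mismatches, 92.5% for MT1E and for MT1X with 14 each, and 91.4% for MT1F with 16. Pairwise identity among these 5 genes ran from 88.7% to 95.2%.

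The copies could mostly be told apart at the length of the reads, which were 75 nt. None of the 75-base words of the principal MT2A and MT1F transcripts occurs in an annotated transcript of another gene, and 0.794% of those of MT1E and 6.63% of those of MT1G do. For MT1X the share was 31.6%, with MT1G, the pseudogene MT1XP1 and an overlapping gene, AC026461.1. Reads aligned to more than 1 place were tallied apart by the counter and made up 7.56% ± 0.214 (SD, n = 3) of the reads in untreated and 7.72% ± 0.0833 (SD, n = 3) in monensin libraries. This word count does not cover reads shortened by trimming or aligned with mismatches, so the split among near-identical rows carries that uncertainty.

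All 5 metallothioneins that could be tested rose in monensin-treated cells, beside 34.1% of all tested genes. The groups did not overlap in any of the 5, as was so for 71.1% of all tested genes. These rows lie in the same cluster and some share sequence, so they may not be independent of each other. MT2A, the most widely expressed member, stood at 17.8, 17.1 and 13.9 CPM in the untreated libraries and at 72.4, 66.9 and 48.9 CPM in the monensin libraries. Every monensin library was above every untreated one, and monensin replicate 3 was the lowest of its group. The log2 fold change was 1.95 (SE 0.12, adjusted p = 1.52e-09), and 2.098 without that library. MT1X went from 16.6, 16.1 and 14.4 CPM to 36.2, 35.3 and 31.8 CPM, a change of 1.13 (SE 0.07, adjusted p = 1.64e-09). MT1G went from 14.7, 15.0 and 13.4 CPM to 29.5, 28.9 and 28.8 CPM, a change of 1.02 (SE 0.06, adjusted p = 1.51e-09). In both genes the groups were far apart and the monensin libraries lay close together. MT1F rose from 21.2, 19.0 and 18.0 CPM to 35.6, 34.8 and 34.1 CPM, with a change of 0.84 (SE 0.07, adjusted p = 1.65e-08). MT1E had the highest level of the 5 before treatment and the smallest estimated change, from 68.2, 65.9 and 60.9 CPM to 84.6, 88.4 and 84.9 CPM (0.40, SE 0.05, adjusted p = 4.31e-06). The change of MT1E was 0.21 (adjusted p = 0.000533) with GC and length trends removed. The other 4 were then also smaller, at 1.78 for MT2A, 0.98 for MT1X, 0.74 for MT1G and 0.62 for MT1F.

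Because reads can pass between copies, the metallothioneins were also summed. Their total was 131 ± 9.28 CPM (SD, n = 3) in untreated and 248 ± 16.3 CPM (SD, n = 3) in monensin libraries, a ratio of 1.89. Adding the metallothionein rows outside the MT1 and MT2A symbols gave 1.90. Within the total, MT2A made up 12.3% ± 0.770 (SD, n = 3) of the counts in untreated and 25.2% ± 3.43 (SD, n = 3) in monensin libraries. MT1E made up 49.5% ± 0.673 and then 34.8% ± 2.19 of the counts (SD, n = 3) while its own level rose. These shares were not tested. MT1M, also in the cluster, had 2, 2 and 1 counts in untreated and 9, 7 and 5 in monensin libraries, too few to be tested. MT1A held 55 counts over the 6 libraries, the pseudogene MT1L 10, and MT1B and MT1H 1 each.

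MT2P1, a processed copy of MT2A outside the chosen symbols, is 183 bases long and has 5 mismatches to the MT2A coding sequence. Its row stood at 1.88 ± 0.138 CPM (SD, n = 3) in untreated libraries and at 7.75 CPM on average in monensin libraries, a change of 2.04 (adjusted p = 7.25e-10) beside 1.95 for MT2A. MT2P1 shares no 75-base word with MT2A, and whether its reads came from the parent gene was not tested. The authors' deposited table, which lists 2410 genes with absolute log2 fold changes above 1, holds MT2A at 1.93, MT1X at 1.11 and MT2P1 at 2.02. MT1G, at 1.02 in the fit used here, is absent from it.

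**Figure D2:**
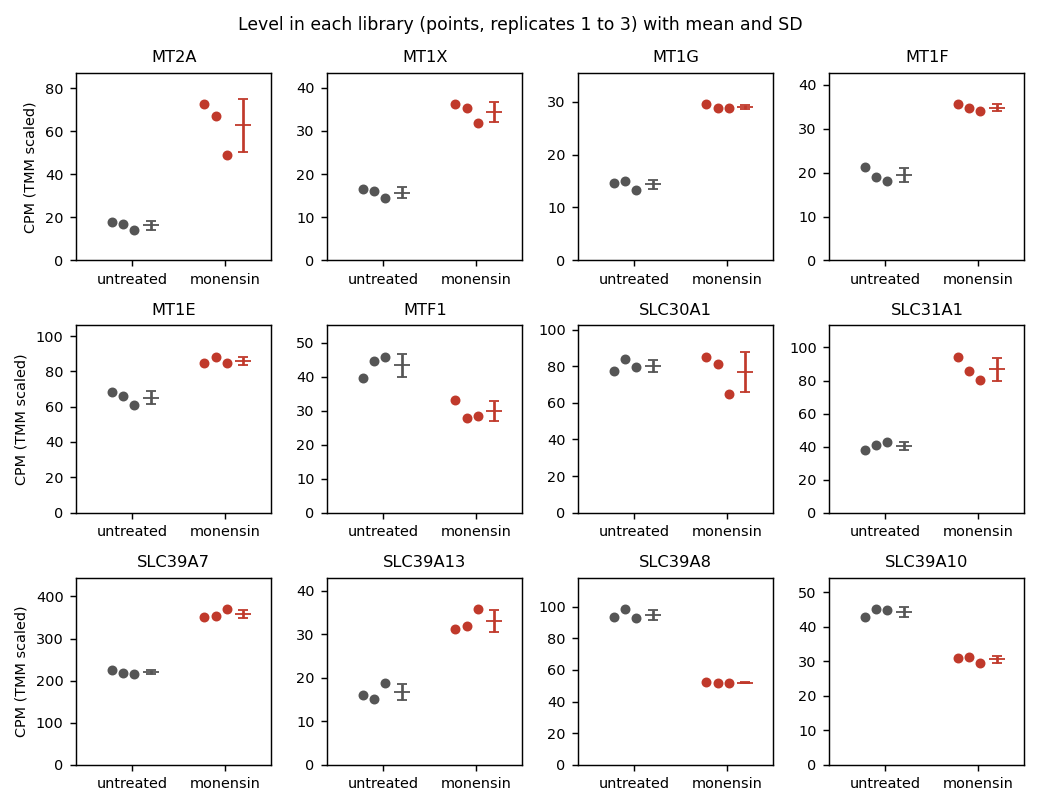
CPM in each of the 6 libraries (points; replicates 1 to 3 from left to right) with mean and SD for 12 genes, untreated in grey and monensin in red, each panel with its own axis from 0. The 5 metallothioneins and SLC31A1 are higher in every monensin library, MTF1 is lower, and the groups overlap for SLC30A1.

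MTF1, the zinc sensor itself, fell. It stood at 39.5, 44.7 and 45.9 CPM in untreated and 33.2, 27.7 and 28.6 CPM in monensin libraries (-0.54, SE 0.07, adjusted p = 9.74e-06). The groups did not overlap, as was so for 71.1% of all tested genes. Counts measure the RNA of this factor and not the activity of its protein.

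SLC30A1 (ZnT1), which exports zinc through the plasma membrane and is a known target of MTF1, was not called. It stood at 77.3, 84.0 and 79.6 CPM in untreated libraries and at 85.4, 81.3 and 64.6 CPM in monensin libraries. The groups overlapped, and the lowest value was again monensin replicate 3. The change was -0.06 with a 95% interval of -0.22 to 0.11 (adjusted p = 0.529), which excludes a doubling like that of MT1X under this fit. Its direction was not stable: it was 0.05 without monensin replicate 3, 0.03 with total counts alone, and 0.21 (adjusted p = 0.00446) after trends with GC content and gene length were removed.

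Metal response elements were looked for before the RefSeq starts of these genes because MTF1 is known to bind them. The searched letters were TGCACNC and TGCGCNC, on both strands, in the 250 bases before the start of each promoter in the RefSeq promoter set (GRCh38.p14), and capitals mark matches. Of 35116 promoters, 24.8% held at least 1 match, 0.370% at least 4 and 0.0313% at least 7. MT2A held 7, starting 246, 168, 153, 139, 88, 54 and 8 bases before the start, of which 3 are printed, at chr16:56608408-56608430, chr16:56608488-56608510 and chr16:56608522-56608544, plus strand. The whole MT2A window lies inside the gene model used for the lengths here, which starts at 56608199 in GENCODE 29. MT1X held 4, at 150, 122, 78 and 53 bases, within chr16:56682220-56682423, plus strand. SLC30A1 held 1, at 49 bases, within chr1:211579162-211579411, minus strand. The GENCODE 29 model of SLC30A1 starts at 211578742 on that strand, downstream of this window. The bases just before that start were not searched, so the windows of these genes are not placed alike.
MT2A site at 168: cgcggcccGTGTGCAgagccggg
MT2A site at 88: cgcggggcGTGTGCAggcagcgc
MT2A site at 54: ggggctttTGCACTCgtcccggc
MT1X: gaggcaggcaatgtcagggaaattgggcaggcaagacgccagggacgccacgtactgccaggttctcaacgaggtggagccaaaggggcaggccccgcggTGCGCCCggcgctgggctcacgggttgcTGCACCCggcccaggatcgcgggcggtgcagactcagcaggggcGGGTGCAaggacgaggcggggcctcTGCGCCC
SLC30A1: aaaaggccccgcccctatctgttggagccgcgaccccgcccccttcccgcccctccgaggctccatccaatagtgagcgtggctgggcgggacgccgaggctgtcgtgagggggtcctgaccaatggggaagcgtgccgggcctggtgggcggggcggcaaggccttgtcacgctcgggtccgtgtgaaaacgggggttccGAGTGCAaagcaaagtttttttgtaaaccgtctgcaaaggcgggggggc
MT1H held 8 matches and had 1 count in all 6 libraries, and SLC31A1, SLC39A10 and MTF1 held none. Matches also lay before genes that fell (2 for ATOX1, 1 each for SLC30A6 and SLC39A6) and genes that rose (1 each for SLC30A4 and SLC39A3). Some genes with several entries held matches in some or all of them: SLC30A3 and SLC39A8, which fell, and SLC39A1, SLC39A13 and ATP7B, which rose. The set has an entry for 30 of the 40 genes, and MT1E, MT1F and MT1G are among those without one. A match is a match of letters and not a measured binding site.

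Among the SLC30A exporters, 7 of 10 were tested: 1 rose, 3 fell and 3 were not called, with a median of -0.10. That is 57.1% called, beside 67.8% of all tested genes. SLC30A9, a mitochondrial zinc exporter, fell from 107, 108 and 110 CPM to 83.1, 83.1 and 82.3 CPM (-0.39, SE 0.04, adjusted p = 8.66e-07). SLC30A3, known for loading zinc into synaptic vesicles, fell from 6.58, 5.83 and 5.91 CPM to 4.13, 3.999 and 4.03 CPM (-0.59, SE 0.11, adjusted p = 0.000193). In both genes all monensin libraries were below all untreated ones, where 71.1% of all tested genes had no overlap in either direction. SLC30A6, which forms a complex with SLC30A5 in the early secretory pathway, fell from 37.97, 43.4 and 38.8 CPM to 34.7, 33.5 and 32.2 CPM (-0.26, SE 0.06, adjusted p = 0.00175). SLC30A5 itself stood at 103, 112 and 108 CPM and then 107, 107 and 98.4 CPM, with a change of -0.04 (95% interval -0.15 to 0.06, adjusted p = 0.467). SLC30A7, a further Golgi zinc transporter, went from 117, 120 and 114 CPM to 112, 114 and 103 CPM, a change of -0.10 (95% interval -0.20 to 0.01, adjusted p = 0.0926).

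SLC30A4 was the exporter that rose, at a level near the limit of the test. Its counts were 9, 12 and 13 in untreated and 23, 22 and 22 in monensin libraries, with a change of 0.95 (SE 0.27, adjusted p = 0.00583). DESeq2 gave it an adjusted p of 0.0569. SLC30A10 had 0 counts in all libraries, which allows up to 0.0204 CPM over the 6 libraries together (3 counts, covering counting error only), while SLC30A2 had 1 count and SLC30A8 had 2. The tested exporters other than SLC30A3 had 36.2% to 40.0% GC in their longest annotated transcript. With GC and length trends removed, 4 exporters were raised and 2 lowered, against 1 and 3. SLC30A5 then stood at 0.21 (adjusted p = 5.15e-05), SLC30A7 at 0.18 (adjusted p = 0.000522) and SLC30A6 at 0.01 (adjusted p = 0.861), so for these genes the direction rests on that choice. SLC30A9 stayed lowered, at -0.12 (adjusted p = 0.0142). On total counts alone SLC30A6 was -0.17.

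The SLC39A importers moved in both directions. Of 11 tested genes, 6 rose, 4 fell and 1 was not called, with a median of 0.28. That is 90.9% called, beside 67.8% of all tested genes. SLC39A7 (ZIP7), which releases zinc from the endoplasmic reticulum and Golgi into the cytosol, had the highest count level of the importers under monensin. It rose from 225, 218 and 217 CPM to 352, 353 and 371 CPM (0.70, SE 0.04, adjusted p = 4.60e-10). SLC39A13 (ZIP13), another importer of the secretory pathway, rose from 16.1, 15.1 and 18.9 CPM to 31.2, 32.0 and 35.8 CPM (0.98, SE 0.08, adjusted p = 3.20e-08). In both genes the groups were separated by much more than the spread within them.

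Other importers, most of them known from the plasma membrane, were split. SLC39A14 (ZIP14), which also carries iron and manganese, rose from 217, 229 and 226 CPM to 305, 294 and 264 CPM (0.36, SE 0.05, adjusted p = 1.07e-05). SLC39A1 (ZIP1) rose from 130, 129 and 132 CPM to 157, 161 and 159 CPM (0.29, SE 0.04, adjusted p = 1.22e-05), and its change was 0.12 with GC and length trends removed. For SLC39A1, 89.0% of the 75-base words of its principal transcript are shared with other annotated genes. AL358472.7, on the same strand and without a count of its own here, covers 60.8% of its exonic bases. CREB3L4, on the opposite strand, covers 8.26%. No source used here gives the strand setting of the counting, which bears on the overlap with CREB3L4 and not on that with AL358472.7. SLC39A3 (ZIP3) rose from 72.3, 65.5 and 66.9 CPM to 78.1, 79.6 and 91.1 CPM (0.28, SE 0.06, adjusted p = 0.000835), and its change was 0.14 with those trends removed. SLC39A11 (ZIP11) rose from 36.3, 37.4 and 36.6 CPM to 49.4, 43.6 and 47.5 CPM (0.35, SE 0.06, adjusted p = 6.17e-05). None of these 4 genes had overlapping groups, as was so for 71.1% of all tested genes. The difference of their changes from that of SLC39A7 was not tested.

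The deepest fall was that of SLC39A8 (ZIP8), a zinc and manganese importer known from monocytes and macrophages. It went from 93.1, 98.6 and 92.9 CPM to 52.2, 52.0 and 51.6 CPM (-0.87, SE 0.05, adjusted p = 2.61e-10), and the monensin libraries were almost equal. SLC39A4 (ZIP4), the importer known for zinc absorption in the gut, fell from 52.2, 47.4 and 50.01 CPM to 29.6, 29.7 and 34.3 CPM (-0.68, SE 0.06, adjusted p = 1.81e-07). SLC39A6 (ZIP6) and SLC39A10 (ZIP10), closely related importers that can act as a pair, both fell. SLC39A6 went from 95.4, 103 and 96.4 CPM to 67.6, 67.5 and 63.3 CPM (-0.57, SE 0.05, adjusted p = 5.91e-08). SLC39A10 went from 42.8, 45.2 and 44.9 CPM to 31.0, 31.3 and 29.5 CPM (-0.53, SE 0.05, adjusted p = 3.52e-07), and -0.26 with GC and length trends removed. All 4 genes were lower in every monensin library than in any untreated one, where 71.1% of all tested genes had no overlap in either direction. SLC39A9 (ZIP9) stood at 129, 136 and 131 CPM and then 136, 131 and 123 CPM, with a change of -0.02 (95% interval -0.12 to 0.08, adjusted p = 0.743), and 0.15 with GC and length trends removed. SLC39A2 held 14 counts, SLC39A5 17 and SLC39A12 0 over all libraries, and none of these was tested.

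Of the 5 copper genes, 2 rose, 1 fell and 2 were not called, or 60% called beside 67.8% of all tested genes. SLC31A1 (CTR1), the main copper importer, stood at 37.6, 41.2 and 42.6 CPM in untreated and 94.5, 85.6 and 80.5 CPM in monensin libraries. Its groups were widely separated, and the change was 1.102 (SE 0.06, adjusted p = 6.30e-10). The authors' deposited table gives it 1.08. ATOX1, the chaperone that hands copper to the ATP7 pumps, fell from 32.7, 29.6 and 29.9 CPM to 23.4, 23.1 and 26.9 CPM (-0.33, SE 0.07, adjusted p = 0.000603), and by -0.21 with GC and length trends removed. ATP7A, the Golgi copper pump mutated in Menkes disease, had 4.01, 5.70 and 4.90 CPM and then 5.41, 5.28 and 4.03 CPM, with a change of 0.02 (95% interval -0.29 to 0.33, adjusted p = 0.918). ATP7A was called with GC and length trends removed, at 0.34 (adjusted p = 0.0286). ATP7B, the pump mutated in Wilson disease, went from 5.61, 6.35 and 7.40 CPM to 8.88, 8.24 and 6.94 CPM. The groups overlapped, and its change was 0.32 (SE 0.12, adjusted p = 0.0277). It was not called with DESeq2, at 0.31 (adjusted p = 0.0707), nor without untreated replicate 1, at 0.22 (adjusted p = 0.131), or untreated replicate 2, at 0.30 (adjusted p = 0.0682). Without monensin replicate 1 it was 0.24 (adjusted p = 0.13) and without monensin replicate 2 it was 0.29 (adjusted p = 0.0802), also not called. SLC31A2 (CTR2) stood at 4.29, 4.63 and 4.21 CPM and then 4.83, 4.80 and 5.31 CPM, with a change of 0.19 (95% interval -0.06 to 0.43, adjusted p = 0.162). FKBP15 on the opposite strand covers 63.1% of the exonic bases of SLC31A2, so without a known strand setting the reads of this pair cannot be told apart.

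Levels of different genes were compared per kb of exon. SLC39A7 was highest in both conditions, at 77.3 ± 1.59 CPM per kb (SD, n = 3) in untreated and 126 ± 3.73 in monensin libraries, followed by MT1E at 61.8 ± 3.56 and 81.7 ± 2.00. MT2A moved from place 14 of the 29 genes to place 3, at 12.5 ± 1.62 and then 48.3 ± 9.47 CPM per kb. SLC30A4 was lowest, at 0.0579 ± 0.0114 and 0.112 ± 0.00402 CPM per kb. The lengths used were all annotated exon bases, and the order depends on them. Per kb of the principal transcript alone, SLC30A7 stood at 91.4 instead of 13.98 CPM per kb in untreated cells. On that scale MT1E was the highest metallothionein in both conditions, at 92.3 ± 5.31 and 122 ± 2.98 CPM per kb. Under monensin MT2A (79.8 ± 15.7), MT1X (76.5 ± 5.15) and MT1G (71.6 ± 0.943) did not differ from each other beyond their spread.

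**Figure D3:**
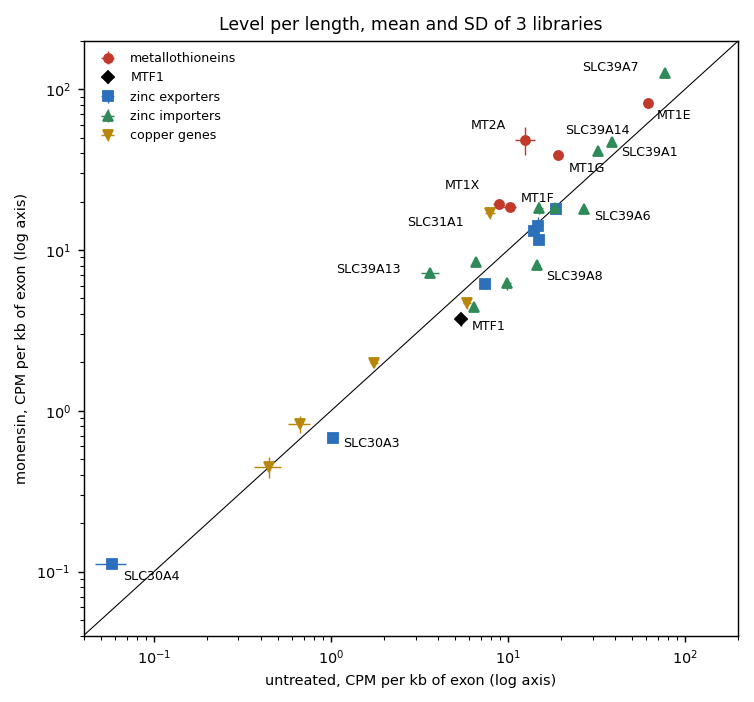
Mean CPM per kb of annotated exon in untreated (x axis) and monensin (y axis) libraries on log axes, with SD over 3 libraries, for the 29 tested genes. Points above the diagonal line of equal levels are higher with monensin, and MT2A at 12.5 and 48.3 lies farthest above it.

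Genes with neighbouring roles were read from lists. Over all these lists 69.2% of 52 tested genes were called, near the 67.8% of all tested genes. Of 15 tested genes of copper delivery and copper enzymes, 4 rose and 8 fell, or 80% called, with a median of -0.15. PAM, a copper enzyme that amidates secreted peptides, changed by -0.88 (SE 0.07), SCO1, which delivers copper to cytochrome oxidase, by -0.66 (SE 0.06), and CMC2, an assembly factor of that oxidase, by -0.58 (SE 0.08). CCS, the copper chaperone of superoxide dismutase, rose by 0.61 (SE 0.08), COX19 by 0.49 (SE 0.05), MEMO1 by 0.66 (SE 0.15) and SCO2 by 0.86 (SE 0.27). SCO2 lost its call with DESeq2 (adjusted p = 0.0766) and with GC and length trends removed (adjusted p = 0.0814), where CCS was 0.35 and CMC2 was -0.32.

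Of 8 tested genes of other zinc permeation and transfer, 3 rose and 2 fell, with a median of -0.03. In this list 62.5% were called, beside 67.8% of all tested genes. MCOLN1, a lysosomal cation channel that passes zinc, rose by 0.71 (SE 0.08), and ERP44, a zinc-regulated chaperone of the Golgi, by 0.32 (SE 0.04). CBWD1 and CBWD2, near-identical genes whose reads can be exchanged, changed by -0.39 (SE 0.05) and -0.55 (SE 0.06). Of the other copies, CBWD6 rose by 0.51 (SE 0.16, adjusted p = 0.0121), from 3.05 ± 0.411 to 4.36 ± 0.889 CPM (SD, n = 3). CBWD3 and CBWD5 were not called, at -0.18 (adjusted p = 0.584) and 0.02 (adjusted p = 0.914). With GC and length trends removed CBWD2 was -0.29, ERP44 was 0.58, and CBWD1 was not called, at -0.08 (adjusted p = 0.162).

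Of 11 tested metal response and MTF1 target genes outside the chosen symbols, 5 rose, 1 fell and 5 were not called, with a median of 0.33. That is 54.5% called, beside 67.8% of all tested genes. Not called were TXNRD1 (-0.03), SELENOH (0.04), SELENOW (-0.10), HSPA1A (0.33) and PGF (0.33). PRNP, the prion protein gene, rose by 0.74 (SE 0.07), NDRG1 by 0.54 (SE 0.06) and the heat shock gene HSPA1B, a near-identical copy of HSPA1A, by 0.42 (SE 0.05), or 0.19 with GC and length trends removed. SLC40A1 (ferroportin), the cellular iron exporter, changed by -1.03 (SE 0.09). HMOX1, the haem oxygenase gene, was named after its values were seen. It stood at 0.795 ± 0.106 CPM (SD, n = 3) in untreated and 5.15 ± 1.15 CPM (SD, n = 3) in monensin libraries, a change of 2.69 (SE 0.21, adjusted p = 1.87e-08).

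**Figure D4:**
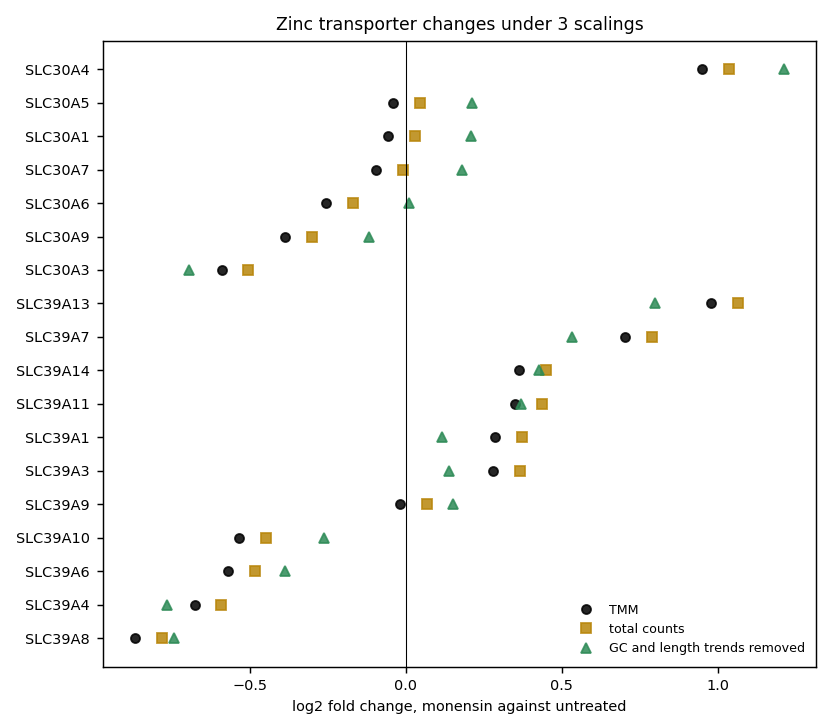
Log2 fold change of monensin over untreated (x axis) for the 18 tested zinc transporters under TMM scaling (circles), total counts alone (squares) and with GC and length trends removed (triangles). SLC39A7 and SLC39A13 stay above 0 and SLC39A8 below it under these scalings, while SLC30A1, SLC30A5, SLC30A6, SLC30A7 and SLC39A9 cross 0 when the trends are removed.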

How the data were processed

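Per the labels' protocols, Trizol RNA was made into directional NEBNext Ultra II libraries and read as single 75 nt reads on a NextSeq. The authors deposited raw counts of reads per gene for each library, without normalization. HISAT2 2.1.0, Trimmomatic 038, DESeq2 1.22.2, HTSeq 0.11.1, bcl2fastq and the build GRCh38 are named, per the submitters' processing notes, which give no order or role. The authors' deposited table gives log2 fold changes of 2410 genes. Rows that tally unassigned reads, 19.3% ± 0.388 (SD, n = 3) of the reads in untreated and 21.6% ± 0.398 in monensin libraries, stayed out of library sizes and tests.

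Counts were tested with edgeR 4.0.16 (R 4.3.3): filterByExpr, TMM, and a quasi-likelihood F test on treatment over all 6 libraries, with Benjamini-Hochberg adjustment over 16542 genes. SE is the log2 fold change divided by the square root of F, and intervals are 95% intervals. Exon lengths, GC content and transcripts came from GENCODE 29, which matched 58275 genes (99.79%) and all 40 chosen genes. Alternatives were other size factors, other filters, DESeq2 1.42.0, a replicate block, removal of GC and length trends, an adjusted p under 0.01 and leaving out each library. Every chosen gene with at least 10 counts is named. From each neighbour list, up to 4 genes of average log2 CPM of at least 2 with the largest change are named, and members moving against their list where 5 or fewer did. The genes, lists and tests were chosen with earlier results of these data known.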

Additional observations from a re-analysis of the deposited data

How the results depend on the processing

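Of the 29 tested genes, 12 to 19 were raised and 8 or 9 lowered under the alternatives, against 14 and 9. The 5 metallothioneins stayed raised in every alternative, MT1E least with GC and length trends removed (0.21), and their summed ratio lay between 1.82 and 2.00. The 4 lowered and 6 raised importers were counted as 4 and as 6 or 7. Exporters raised, 1 in the reported fit, numbered 0 with the stricter filter, where SLC30A4 was not tested, 0 with DESeq2, and 4 with GC and length trends removed, with or without the replicate block. Copper genes raised, 2 in the reported fit, numbered 1 with DESeq2 and at an adjusted p under 0.01, and 1 to 2 when a library was left out. Total counts alone moved the median of all genes from 0.02 to 0.11, and SLC31A2 was then called (adjusted p = 0.0431).

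Reversed directions were these, and apart from the changed inputs the cause was not tested. With total counts alone SLC30A1 was 0.030, SLC30A5 0.044 and SLC39A9 0.068. With no filter ATP7A was -0.0028. With GC and length trends removed, SLC30A1 was 0.21, SLC30A5 0.21, SLC30A6 0.010, SLC30A7 0.18, SLC39A9 0.15, ATP2C1 0.080, ATP13A2 -0.13 and ADAM10 0.072, and with the replicate block added these were 0.20, 0.21, 0.011, 0.18, 0.15, 0.079, -0.13 and 0.073. ATP7A was then called (adjusted p = 0.0286 without the block). When a library was left out, SLC30A1 ran from -0.14 to 0.052 and SLC39A9 from -0.051 to 0.018, both highest without monensin replicate 3, and ATP7A from -0.11 to 0.14. Whether the replicate numbers pair the samples could not be decided. Deviations of same-numbered samples from their group means correlated at -0.12, 0.14 and 0.04, but deviations within so small a group constrain each other. The replicate block left the calls of 29 of 29 genes as they were, with 14 raised and 9 lowered, and not every sample correlated best with its own number. Genes with few counts, such as SLC30A4 and SCO2, are limited by depth.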

Other observations

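Of 12 tested zinc enzymes, most of them of the secretory pathway, cell surface or lysosome, 7 rose and 3 fell, with a median of 0.22. The list also holds CA2 and LTA4H, which are cytosolic. In it 83.3% were called, where 67.8% of all tested genes were called. MMP2, a secreted gelatinase, stood at 8.61 ± 0.593 CPM (SD, n = 3) in untreated and 19.3 ± 0.208 CPM in monensin libraries, a change of 1.16 (SE 0.07). SMPD1, the lysosomal acid sphingomyelinase, changed by 1.12 (SE 0.07), and MMP14, a membrane protease that activates MMP2, by 0.59 (SE 0.04). The falls were CA2, a carbonic anhydrase, from 823 ± 9.04 to 584 ± 18.9 CPM (-0.50, SE 0.04), the carboxypeptidase gene CPM (-0.37, SE 0.05), and ADAM10, a membrane sheddase (-0.25, SE 0.05). With GC and length trends removed ADAM10 turned to 0.072 and the carboxypeptidase stood at -0.16, and with total counts alone ADAM10 was -0.16.

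Among 6 tested carriers and pumps of manganese, calcium and overlapping ions, 2 rose and 1 fell, with a median of 0.04. In this list 50% were called, beside 67.8% of all tested genes. SLC11A1 (NRAMP1), a metal carrier of phagosomes, rose from 5.17 ± 0.534 to 12.4 ± 0.865 CPM (SD, n = 3; 1.26, SE 0.10), and SLC11A2 (DMT1), which moves iron out of endosomes, from 20.2 ± 1.55 to 38.3 ± 3.43 CPM (0.92, SE 0.07). ATP2C1, the Golgi calcium and manganese pump, changed by -0.16 (SE 0.05) and ATP13A2 by 0.06 (SE 0.06, adjusted p = 0.401), and both turned direction with GC and length trends removed. ATP2C1 was not called with total counts alone.

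Among metallothionein pseudogene rows, MT1P3 rose by 0.61 (adjusted p = 0.000771) and MT1XP1 by 0.72 (adjusted p = 0.0139). With GC and length trends removed the adjusted p was 0.191 for MT1P3 and 0.244 for MT1XP1, and with DESeq2 it was 0.0597 for MT1XP1.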
